A study of Mus musculus with 26 samples.

Results

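The genes described here are 10 genes of the contractile apparatus: the 4 muscle actins Acta2, Acta1, Actc1 and Actg2, the actin-binding proteins Tagln, Cnn1 and Cnn2, the myosin light chain Myl9, and the tropomyosins Tpm1 and Tpm2. They were picked by symbol from the 52535 genes of the count tables, and 9 of the 10 passed the filter on low counts, which left 17273 genes. The choice was made with the RNA-seq contrast known. Differences in their expression are therefore given as a description with no test, and tests are kept for genes that were not chosen in this way.

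The series used E14, a mouse embryonic stem cell (ESC) line, and asked how KLF4 bears on early neural differentiation and on chromatin folding. The RNA-seq samples carry the cell type label NPC (neural progenitor cells), taken on day 12 of neural induction. They comprise 2 biological replicates of genotype Klf4-KO and 2 of genotype WT. RNA polymerase II HiChIP, which recovers contacts between distant DNA sites that the polymerase occupies, is labelled with the same cell type and the same 2 genotypes. It came as 1 pooled loop list per genotype. All groups share the E14 background, and the parental culture of ESCs was on gelatin, with LIF, a MEK inhibitor, a GSK3 inhibitor and serum in the medium. The labels do not say how the knockout was made or how many clones were used.

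Actin filaments in muscle slide past myosin, and muscle cells use dedicated actin genes beside the cytoplasmic actins that every cell makes. Many of these contractile genes are classical targets of serum response factor (SRF), which binds the CArG box, a short motif with C bases at one end, a run of A or T bases, and G bases at the other end. SRF works with the actin-sensing cofactors of the MRTF and myocardin family on cytoskeletal and muscle genes, and with ternary complex factors on immediate early genes. KLF4 itself is a zinc-finger factor of naive pluripotent cells, and in vascular smooth muscle it is known as a repressor of contractile genes that recognises CACCC-type sequences.

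Klf4 ran against the labels. It had 2571 and 2538 counts in the KO-labelled libraries, against 0 and 0 counts in the WT-labelled libraries, which is at least 752-fold higher with a floor of 3 counts per WT-labelled library. Libraries are therefore called by their label throughout, and every direction below is KO-labelled relative to WT-labelled, with no statement about the true genotype. No such check was made for the loop lists. Gene counts totalled 31909094 and 33347088 in KO-labelled libraries and 37703866 and 29835774 in WT-labelled libraries, so 3 counts correspond to 0.0837 to 0.108 CPM (counts per 1000000 gene counts, scaled with TMM factors). Markers of pluripotent cells were abundant under both labels, with a summed level of 2594 and 2661 CPM in KO-labelled and 4930 and 4915 CPM in WT-labelled libraries for 6 genes. The 6 neural progenitor markers summed to 286 and 291 CPM in KO-labelled and 84.7 and 82.8 CPM in WT-labelled libraries. Most of the KO-labelled sum was Otx2 (171 and 168 CPM) and Nes (94.4 and 98.9 CPM). In WT-labelled libraries Otx2 had 7.95 and 7.88 CPM and Nes 73.4 and 73.3 CPM. Pax6, Zic1 and Fabp7 were scarce, averaging 3.56, 3.64 and 0.757 CPM in KO-labelled and 0.0855, 0.0855 and 0 CPM in WT-labelled libraries.

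All 4 muscle actins were detected in both KO-labelled libraries, and 1 read in all fell on any of them in the WT-labelled libraries. Acta2, the actin of smooth muscle and of contractile fibroblasts (chr19:34240336-34255585, mm10), had 5226 and 5289 counts in KO-labelled libraries, against 1 and 0 counts in WT-labelled libraries. That is 152 and 148 CPM in KO-labelled and 0.0285 and 0 CPM in WT-labelled libraries, a count ratio of 9412 with a counting interval of 1689 to 371774. Both KO-labelled libraries thus held ample reads of a gene that was at or next to 0 under the other label. Acta1, the actin of adult skeletal muscle (chr8:123891758-123894775), had 733 and 683 counts in KO-labelled libraries and 0 and 0 in WT-labelled libraries, at least 209-fold higher. Actc1, the actin of heart muscle (chr2:114047282-114052875), had 265 and 219 counts in KO-labelled libraries and 0 and 0 in WT-labelled libraries, at least 71.4-fold higher. Actg2, the actin of visceral smooth muscle (chr6:83512909-83536251), had 4 and 2 counts in KO-labelled libraries and 0 and 0 in WT-labelled libraries, and it did not pass the filter. In bulk RNA, fewer cells of a type and less RNA per cell cannot be told apart. The muscle actins have nearly identical coding sequences, and reads that could not be placed uniquely are not in the counts, so their levels are uncertain to the extent that such reads were lost. The Acta2 span ends 3 bases from that of Stambpl1, a deubiquitinase, and the strand setting of the counting is not given in the sources used here. Stambpl1 averaged 2.70 CPM in KO-labelled and 5.45 CPM in WT-labelled libraries.

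RefSeq promoter sequences are shown for the 3 actins that dominate this group because they are the textbook setting of the CArG box. Each run is the 250 bases before the annotated start in GRCm38.p6 (mm10), on the minus strand, 5′ to 3′. The windows are chr19:34255374-34255623 for Acta2, chr8:123894776-123895025 for Acta1 and chr2:114052876-114053125 for Actc1. Capitals mark the exact CArG box of Acta1 and of Actc1 and, since Acta2 has no exact one, both of its boxes with 1 mismatch. Boxes with 1 mismatch also stand in Acta1 (2 boxes) and Actc1 (3 boxes), left in lower case, and 1 of those in Actc1 has the same letters as the upstream box of Acta2.
Acta2: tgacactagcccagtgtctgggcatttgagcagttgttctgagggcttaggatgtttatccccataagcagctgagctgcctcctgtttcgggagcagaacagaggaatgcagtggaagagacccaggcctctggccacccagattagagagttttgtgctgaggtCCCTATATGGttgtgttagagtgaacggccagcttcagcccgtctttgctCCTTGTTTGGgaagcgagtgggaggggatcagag
Acta1: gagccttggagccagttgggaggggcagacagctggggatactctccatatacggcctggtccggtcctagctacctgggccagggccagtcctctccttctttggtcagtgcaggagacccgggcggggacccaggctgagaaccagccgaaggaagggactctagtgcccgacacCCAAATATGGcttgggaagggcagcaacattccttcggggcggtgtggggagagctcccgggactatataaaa
Actc1: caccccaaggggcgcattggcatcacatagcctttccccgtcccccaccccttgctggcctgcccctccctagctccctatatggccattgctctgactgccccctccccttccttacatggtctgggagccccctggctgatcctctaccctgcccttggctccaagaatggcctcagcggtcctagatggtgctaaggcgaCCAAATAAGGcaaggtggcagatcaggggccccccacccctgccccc
The exact box lies 73 to 64 bases before the start in Acta1 and 47 to 38 bases before it in Actc1. In Acta2 the near matches lie 84 to 75 and 34 to 25 bases before the start. The boxes of vascular actin promoters are known to differ from the consensus, and a match or near match here describes the letters and not binding.

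The calponins and transgelin, which bind along actin filaments, were also higher in every KO-labelled library than in any WT-labelled library, at very different levels of evidence. Cnn1, the calponin of differentiated smooth muscle (chr9:22099221-22109221), had 8.37 and 8.42 CPM in KO-labelled libraries, against 1.08 and 0.0723 CPM in WT-labelled libraries. The WT-labelled libraries disagreed by more than a factor of 10 (38 and 2 counts), so the fitted log2 fold change of 3.75 ± 0.75 (SE) depends on which of them is used. It was 6.78 without WT-labelled replicate 1 and 2.94 without WT-labelled replicate 2. Cnn2, a calponin found in smooth muscle and in non-muscle cells (chr10:79988600-79995400), had 244 and 234 CPM in KO-labelled libraries and 33.6 and 30.2 CPM in WT-labelled libraries, a log2 fold change of 2.90 ± 0.049 (SE). Its replicates lay close together under both labels. Tagln, transgelin or SM22α, one of the earliest markers of smooth muscle differentiation (chr9:45929628-45936058), was scarce under both labels. It had 23 and 16 counts in KO-labelled libraries and 4 and 4 counts in WT-labelled libraries, or 0.671 and 0.446 CPM in KO-labelled and 0.114 and 0.145 CPM in WT-labelled libraries, and its log2 fold change was 2.09 ± 0.77 (SE). The Tagln span overlaps that of Pcsk7, a proprotein convertase with 13.5 CPM in KO-labelled and 22.9 CPM in WT-labelled libraries. Reads from overlapping genes cannot be told apart without the strand setting, and the few reads given to Tagln carry that doubt.

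The Cnn2 promoter is shown as the only calponin promoter of this set with an exact CArG box, in capitals, 56 to 47 bases before the start (RefSeq, GRCm38.p6, chr10:79988350-79988599, plus strand, 250 bases).
Cnn2: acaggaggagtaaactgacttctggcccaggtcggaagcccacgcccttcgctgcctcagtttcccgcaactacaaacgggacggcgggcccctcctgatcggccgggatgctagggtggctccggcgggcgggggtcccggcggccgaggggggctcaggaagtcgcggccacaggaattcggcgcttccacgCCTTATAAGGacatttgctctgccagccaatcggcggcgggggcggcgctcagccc
The Cnn1 window held neither an exact box nor one with 1 mismatch. That says only that these letters are not in these 250 bases.

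Myl9 and the tropomyosins completed the set. Myl9, the regulatory light chain of smooth muscle and non-muscle myosin II (chr2:156775408-156781657), had 29.4 and 30.8 CPM in KO-labelled libraries, against 0.741 and 0.470 CPM in WT-labelled libraries. Its mean level was 49.7-fold higher and its log2 fold change 5.59 ± 0.18 (SE). Tpm1 (chr9:67022590-67049672) and Tpm2 (chr4:43513726-43523583) encode tropomyosins, which wind along the actin filament and gate myosin binding, with muscle and non-muscle isoforms from each gene. Tpm1 had 620 and 646 CPM in KO-labelled libraries and 80.2 and 79.1 CPM in WT-labelled libraries, a log2 fold change of 2.99 ± 0.033 (SE). Tpm2 had 29.9 and 33.8 CPM in KO-labelled libraries and 18.0 and 15.4 CPM in WT-labelled libraries, with a log2 fold change of 0.93 ± 0.099 (SE). Tpm2 thus moved least of the set, and Tpm1 and Tpm2 were well expressed under both labels. Counts are per gene, so muscle and non-muscle isoforms of the tropomyosins were not separated. The Tpm2 span overlaps Car9, a carbonic anhydrase at 3.02 CPM in KO-labelled and 0.514 CPM in WT-labelled libraries.

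The Myl9 promoter carries its exact CArG box, in capitals, 161 to 152 bases before the start, farther upstream than the boxes of Acta1, Actc1 and Cnn2 (RefSeq, GRCm38.p6, chr2:156775214-156775463, plus strand, 250 bases).
Myl9: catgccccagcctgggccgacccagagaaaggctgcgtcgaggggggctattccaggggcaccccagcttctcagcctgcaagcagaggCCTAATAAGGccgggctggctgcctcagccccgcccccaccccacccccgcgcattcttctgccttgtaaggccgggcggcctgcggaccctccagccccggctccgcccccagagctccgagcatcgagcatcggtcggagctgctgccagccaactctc

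**Figure D1:**
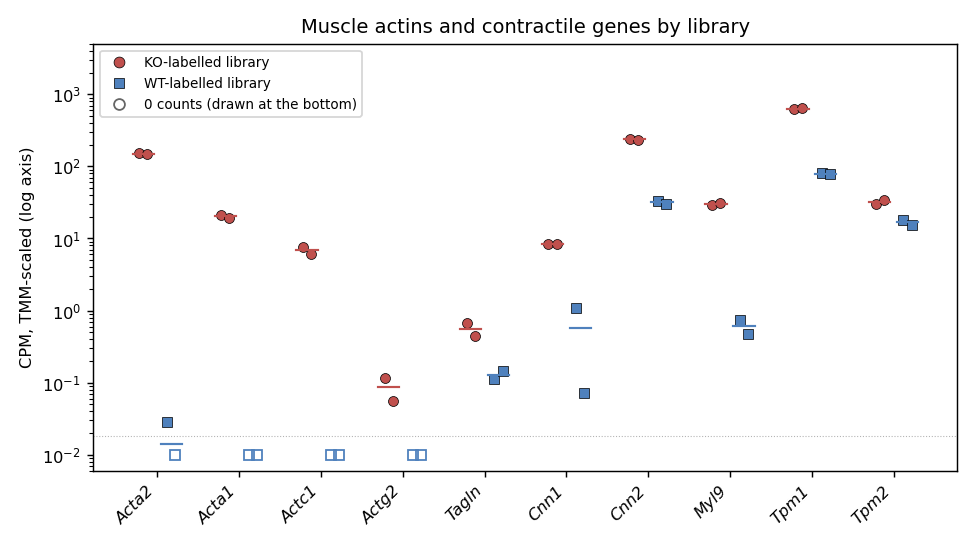
Expression of the 10 contractile genes in each library, in TMM-scaled CPM on a log axis, with KO-labelled libraries as circles left of WT-labelled libraries as squares, a short line at the mean of 2, and open symbols at the bottom for 0 counts. For each gene both KO-labelled points lie above both WT-labelled points, from Acta2 at 152 and 148 CPM in KO-labelled and 0.0285 and 0 CPM in WT-labelled libraries to Tpm2 at 29.9 and 33.8 CPM in KO-labelled and 18.0 and 15.4 CPM in WT-labelled libraries.

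Across the set, the 2 KO-labelled values did not overlap the 2 WT-labelled values for any of the 10 genes, a pattern that the choice of the genes fixed and that 44.2% of the 17273 genes tested showed in the same direction. Ordered by the ratio of mean CPM, or its lower bound, the genes ran from Acta2, Acta1 and Actc1 through Myl9 at 49.7-fold, Cnn1 at 14.5-fold, Tpm1 at 7.95-fold, Cnn2 at 7.49-fold and Tagln at 4.32-fold to Tpm2 at 1.91-fold. The bounds of Acta1 and Actc1 follow from their read depth, so their place against Acta2 is not settled. Cnn1, Tpm1, Cnn2 and Tagln lie too close together, given their SEs, to be put in order. Tpm1, Tpm2 and Cnn2 had at least 426 counts in each WT-labelled library, whereas the other 7 genes had at most 38.

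The genes whose profile over the 4 libraries lay nearest to that of Acta2 (Euclidean distance in log2 of CPM plus 1) were Col1a2 at a distance of 0.0712, Thbs1 at 0.236, Col1a1 at 1.34, Pkdcc at 1.36 and Egr1 at 1.44. Col1a2 and Col1a1 encode the chains of type I collagen, and Col1a2 had 149 and 144 CPM in KO-labelled libraries and 0.0285 and 0.0361 CPM in WT-labelled libraries. Thbs1, the matrix protein thrombospondin 1, had 143 and 137 CPM in KO-labelled libraries and 0.114 and 0.108 CPM in WT-labelled libraries. Pkdcc, a secreted tyrosine kinase, averaged 77.6 CPM in KO-labelled and 0.144 CPM in WT-labelled libraries, and Egr1, an immediate early transcription factor, 78.4 CPM in KO-labelled and 0.345 CPM in WT-labelled libraries. The measure rests on 4 libraries in 2 groups, so it ranks genes by level within each label. With a pseudocount of 0.1, Col1a2, Thbs1 and Pkdcc were again among the nearest 5.

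CArG boxes were looked for in the 250 bases before each annotated start, on both strands, in a RefSeq table of 32851 promoters that held 8 of the 10 genes. An exact box stood in 4 of the 8 (Acta1, Actc1, Cnn2, Myl9), against 1.47% of all promoters. With 1 mismatch allowed, Acta2 and Tpm1 also held a match, against 18.6% of all promoters with such a match, and Cnn1 and Tpm2 held none. CACCC stood on either strand in 7 of the 8 windows, against 52.0% of all promoters, and TATAAA within 60 bases of the start in 1 of the 8 (Acta1), against 2.87%. Muscle actin promoters are textbook examples of the box, so the comparison with all promoters describes the set and is no test.

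**Figure D2:**
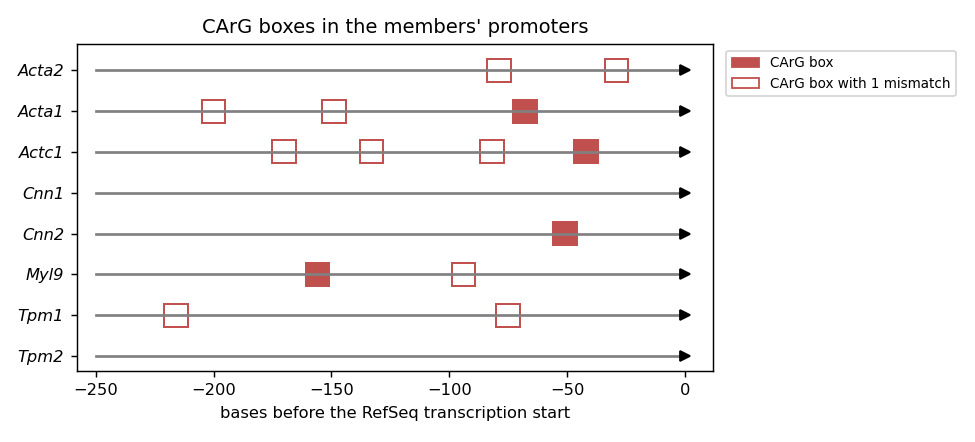
Position of CArG boxes in the 250 bases before the RefSeq start of the 8 genes with a promoter in the table, with filled boxes for exact matches, open boxes for 1 mismatch, and an arrow at the start. The exact boxes lie within 73 bases of the start in Acta1, Actc1 and Cnn2 and 161 bases before it in Myl9, and Cnn1 and Tpm2 have no box drawn.

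Genes outside the set with an exact box in that window were more often called higher than genes without one. Of 163 such genes tested, 81 (49.7%) were called higher and 49 (30.1%) lower in KO-labelled libraries, with a median log2 fold change of 0.28 (edgeR, Benjamini-Hochberg adjusted p below 0.05). Of 11415 tested genes without a box, 39.3% were called higher and 38.7% lower, with a median of 0.01. A call was common in this contrast, as 73.1% of the 17273 genes tested passed. The difference between the groups of promoters was not tested. Boxes farther upstream or in introns were not searched.

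SRF itself and most of its cofactors were higher in KO-labelled libraries. Of 9 genes, 8 were called higher in edgeR's quasi-likelihood test (88.9%, against 37.2% of all genes tested) and none lower (against 35.8%), with a median log2 fold change of 0.93. None was lower at an unadjusted p below 0.05, and DESeq2 called none lower. Srf had 115 and 112 CPM in KO-labelled libraries and 60.8 and 57.0 CPM in WT-labelled libraries, a log2 fold change of 0.94 ± 0.050 (SE, edgeR adjusted p = 1e-14). The largest rise among the cofactors was that of Fhl2, a LIM-domain protein that binds SRF, with 5.02 and 6.19 CPM in KO-labelled libraries and 0.0855 and 0.145 CPM in WT-labelled libraries (log2 5.60 ± 0.41). Myocd, myocardin, the cofactor of cardiac and smooth muscle, had 28 and 27 counts in KO-labelled libraries and 1 and 1 in WT-labelled libraries, a count ratio of 24.6 with an interval of 6.50 to 208. Mrtfb, listed under its older symbol Mkl2, averaged 35.7 CPM in KO-labelled and 18.8 CPM in WT-labelled libraries and was called higher. Mrtfa, listed as Mkl1, averaged 25.4 CPM in KO-labelled and 22.9 CPM in WT-labelled libraries and was not called (log2 0.15 ± 0.094, edgeR adjusted p = 0.141), though it was called higher with upper-quartile factors, with library size alone and without WT-labelled replicate 2. The ternary complex factors Elk1, Elk3 and Elk4 rose by log2 0.33, 1.73 and 0.49, and Scai, an inhibitor of MRTF, rose by 0.80. The Srf promoter window held 2 exact CArG boxes, 82 to 73 and 62 to 53 bases before the start, where 6 promoters of the table held 2 or more.

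The non-muscle relatives of the set were called in both directions at about the rate of all genes. Of 10 such genes, 4 were called higher (40%, against 37.2% of all genes tested) and 4 lower (40%, against 35.8%), with a median log2 fold change of -0.02. Actb, cytoplasmic β-actin, had 1020 and 1012 CPM in KO-labelled libraries and 1593 and 1610 CPM in WT-labelled libraries (log2 -0.66 ± 0.022, edgeR adjusted p = 1.16e-18). Actg1, cytoplasmic γ-actin, averaged 1787 ± 83.2 CPM in KO-labelled and 1779 ± 44.2 CPM in WT-labelled libraries (SD, n = 2 each) and was not called with TMM factors, but was called higher with upper-quartile factors, with library size alone and without KO-labelled replicate 2. Its promoter window held 1 exact CArG box, 90 to 81 bases before the start. Tpm3, a tropomyosin of slow muscle and of the cytoskeleton, averaged 298 CPM in KO-labelled and 616 CPM in WT-labelled libraries (log2 -1.05 ± 0.027), while Tpm4, a mainly non-muscle tropomyosin, averaged 321 CPM in KO-labelled and 100.2 CPM in WT-labelled libraries (log2 1.68 ± 0.034). Of the tropomyosin genes, Tpm1, Tpm2 and Tpm4 were thus higher and Tpm3 lower. Cnn3, the calponin of non-muscle and neural cells, averaged 341 CPM in KO-labelled and 501 CPM in WT-labelled libraries and was called lower, opposite to Cnn1 and Cnn2. Tagln2 averaged 206 CPM in KO-labelled and 93.8 CPM in WT-labelled libraries (log2 1.13 ± 0.038), and Tagln3, the neuronal transgelin, was also called higher (log2 0.61), a call lost without KO-labelled replicate 2 or without WT-labelled replicate 1. The myosin light chains stayed close, with Myl6 called higher (log2 0.17), Myl12b lower (log2 -0.26, a call lost with library size alone) and Myl12a not called (log2 -0.05, called higher with library size alone). Over the alternatives tried, the list gave 3 to 6 genes higher and 3 to 4 lower.

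**Figure D3:**
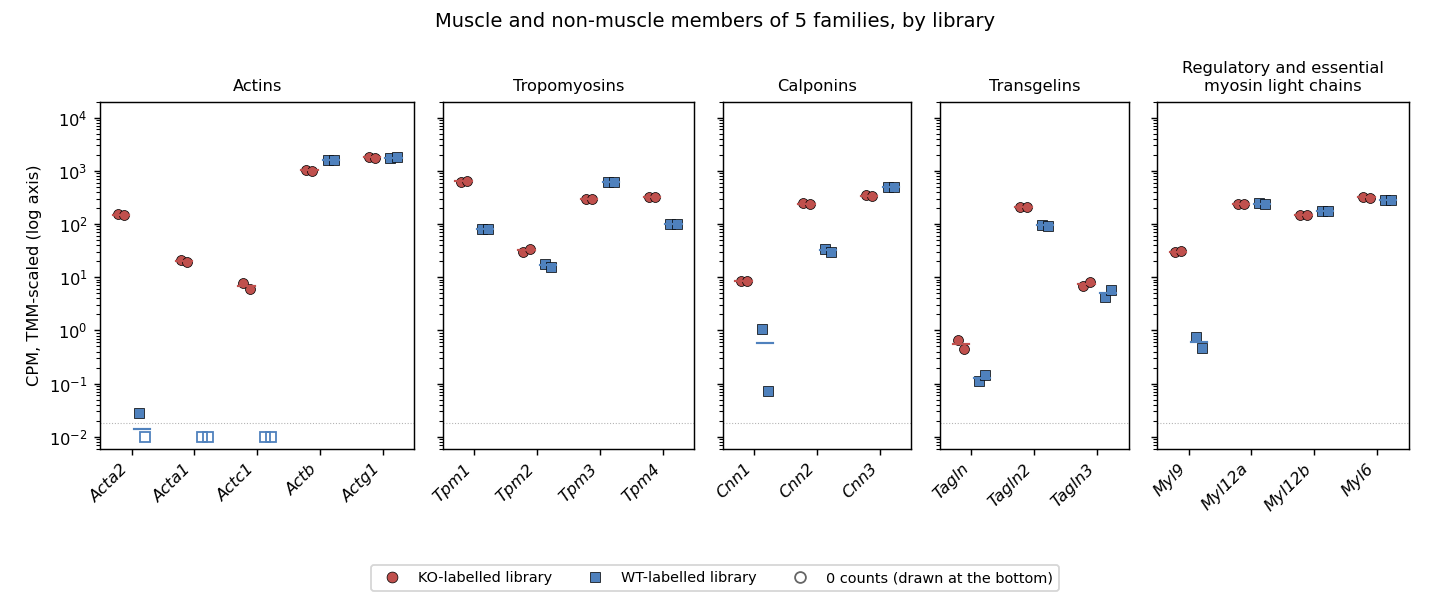
Muscle and non-muscle members of 5 protein families in each library, in TMM-scaled CPM on a log axis, with KO-labelled libraries as circles left of WT-labelled libraries as squares, a line at the mean, and open symbols for 0 counts. Within the actins, Acta2, Acta1 and Actc1 are far apart between labels while Actb is lower in KO-labelled libraries (1016 CPM in KO-labelled and 1601 CPM in WT-labelled libraries), and heights of different genes are not comparable because CPM is not per length.

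Other genes of smooth muscle followed the direction of the set. Of 25 tested, 22 were called higher (88%, against 37.2% of all genes tested) and 1 lower, with a median log2 fold change of 2.35. Among sarcolemmal and structural genes, Cav1, the coat protein of caveolae, had 143 and 139 counts in KO-labelled libraries and 0 and 0 in WT-labelled libraries, at least 41.5-fold higher. Des, desmin, the intermediate filament of muscle, had 28.4 and 24.2 CPM in KO-labelled libraries and 2.51 and 3.07 CPM in WT-labelled libraries (log2 3.25 ± 0.15). The actin-binding Nexn and the Z-disc protein Pdlim3 rose by log2 4.74 and 5.36. Kcnmb1, the regulatory subunit of the smooth muscle BK channel, had 40 and 21 counts in KO-labelled libraries and 0 and 0 in WT-labelled libraries, at least 9.04-fold higher. Myh11, the smooth muscle myosin heavy chain and the strictest marker of that cell type, had 44 and 75 counts in KO-labelled libraries and 10 and 1 in WT-labelled libraries, so it was called higher at a low level. The widely expressed Cald1, Csrp1, Csrp2 and Ppp1r14a rose by log2 0.59, 0.30, 0.57 and 0.46. Aoc3, a vascular amine oxidase, was lower, with 0.438 and 0.809 CPM in KO-labelled libraries and 5.64 and 6.11 CPM in WT-labelled libraries (log2 -3.22 ± 0.32, edgeR adjusted p = 1.57e-09). Hspb6 (log2 -0.32) and Fbxl22 (log2 0.67) were not called.

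Genes of the cardiac and skeletal sarcomere were called in both directions. Of 30 listed, 22 could be tested, and 12 were called higher (54.5%, against 37.2% of all genes tested) and 6 lower (27.3%, against 35.8%), with a median log2 fold change of 1.31. The share called in either direction was 81.8%, near the 73.1% of all genes tested. Myh7, the slow and cardiac β-myosin heavy chain, had 250 and 298 counts in KO-labelled libraries and 3 and 1 in WT-labelled libraries (log2 6.86 ± 0.40), and Tnni2, fast skeletal troponin I, had 24 and 19 counts in KO-labelled libraries and 0 and 0 in WT-labelled libraries, at least 6.34-fold higher. Tnnt2, cardiac troponin T, had 40 and 65 counts in KO-labelled libraries and 4 and 4 in WT-labelled libraries. Ttn, titin, ran the other way, with 6.21 and 4.18 CPM in KO-labelled libraries and 136 and 134 CPM in WT-labelled libraries (log2 -4.70 ± 0.10, edgeR adjusted p = 5.09e-16). Mylpf, the fast skeletal regulatory light chain, had 12.0 and 13.9 CPM in KO-labelled libraries and 209 and 226 CPM in WT-labelled libraries (log2 -4.06 ± 0.061). Myl2, Myl7, Ryr2 and Myom2 were also lower. The ventricular light chain Myl2 fell by 3.16 and the atrial Myl7 fell by 1.48 on the log2 scale, whereas their relative Myl3 had 65 and 49 counts in KO-labelled libraries and 0 and 1 in WT-labelled libraries. Myl9 of the set and its striated counterparts Myl2 and Mylpf thus had opposite directions.

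Cytoskeletal and matrix genes known as broad MRTF-SRF targets were called higher in 19 of 25 cases (76%, against 37.2% of all genes tested) and lower in 6 (24%, against 35.8%), with a median log2 fold change of 0.93. Thbs1 showed the largest fitted rise (log2 10.24 ± 0.13, edgeR adjusted p = 3.28e-27), and Mical2, an actin-oxidising enzyme that acts on MRTF, had 132 and 149 counts in KO-labelled libraries and 0 and 0 in WT-labelled libraries, at least 41.3-fold higher. Ankrd1, a muscle ankyrin repeat protein and also a YAP target, had 332 and 312 counts in KO-labelled libraries and 1 and 0 in WT-labelled libraries, a count ratio of 576 with an interval of 103 to 22802. The matricellular Ccn1 and Ccn2, listed as Cyr61 and Ctgf, rose by log2 3.50 and 2.29, and the focal adhesion proteins Zyx and Vcl rose by 3.51 and 0.99. Flna, Actn1 and Itga5 rose by less than 1 on the log2 scale. The 6 lower genes were Cfl1, Pfn1, Wdr1, Tln1, Actn4 and Dstn. Cfl1, cofilin, averaged 804 CPM in KO-labelled and 1598 CPM in WT-labelled libraries (log2 -0.99 ± 0.024), and Pfn1, profilin, 408 CPM in KO-labelled and 769 CPM in WT-labelled libraries (log2 -0.92 ± 0.026). Wdr1, which helps cofilin, fell by 0.50. Tln1, Actn4 and Dstn fell by 0.13, 0.06 and 0.12 with TMM factors, and each was called higher with library size alone. All 3 calls were lost with upper-quartile factors, and that of Actn4 also with RLE factors, with the replicate block (adjusted p = 0.0664) and when either WT-labelled library was left out. Over the alternatives tried, the list gave 18 to 22 genes higher and 3 to 6 lower.

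Targets of the ternary complex factor branch were called higher in 11 of 12 cases (91.7%, against 37.2% of all genes tested), with a median log2 fold change of 2.72. Egr1 had 80.0 and 76.8 CPM in KO-labelled libraries and 0.256 and 0.434 CPM in WT-labelled libraries. Egr3 had 222 and 213 counts and Egr2 78 and 115 counts in KO-labelled libraries, against 0 and 0 for both in WT-labelled libraries, at least 64.0-fold and 28.3-fold higher. The immediate early genes Fos, Fosb and Junb rose by log2 3.61, 4.65 and 2.43. Mcl1, an anti-apoptotic protein, was the 1 gene called lower (log2 -0.23 ± 0.028), a call lost with library size alone. Both branches of SRF target genes were therefore mostly higher, with a larger median in the ternary complex factor branch, a difference that was not tested.

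Regulators of muscle lineages that could be tested were mostly higher, but the master genes of skeletal muscle were at the floor. Of 21 listed, 10 passed the filter, and 9 were called higher (90%, against 37.2% of all genes tested) and 1 lower, with a median log2 fold change of 3.17. Isl1, a factor of the second heart field and of motor neurons, had 22 and 17 counts in KO-labelled libraries and 1 and 0 in WT-labelled libraries, a count ratio of 34.9 with an interval of 5.91 to 1414. Hand1, Gata4 and Gata6, factors of extraembryonic tissues, heart and endoderm, rose by log2 4.23, 4.19 and 4.40. Mef2a and Mef2d, which bind muscle promoters beside SRF, rose by log2 1.36 and 0.99. Tbx20, a cardiac T-box factor, was lower, with 2.19 and 2.32 CPM in KO-labelled libraries and 4.76 and 4.26 CPM in WT-labelled libraries. Foxf1, a factor of visceral mesoderm with 14 and 12 counts in KO-labelled and 2 and 3 in WT-labelled libraries, was called higher here but not by DESeq2, without the filter, with the replicate block (adjusted p = 0.0751), or when any 1 library was left out. Myod1 had 1 and 1 counts in KO-labelled and 0 and 0 in WT-labelled libraries, and Myf5 and Tbx5 had 0 counts in all 4 libraries. Nkx2-5 had 15 and 1 counts in KO-labelled and 7 and 5 in WT-labelled libraries, so its values overlapped.

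**Figure D4:**
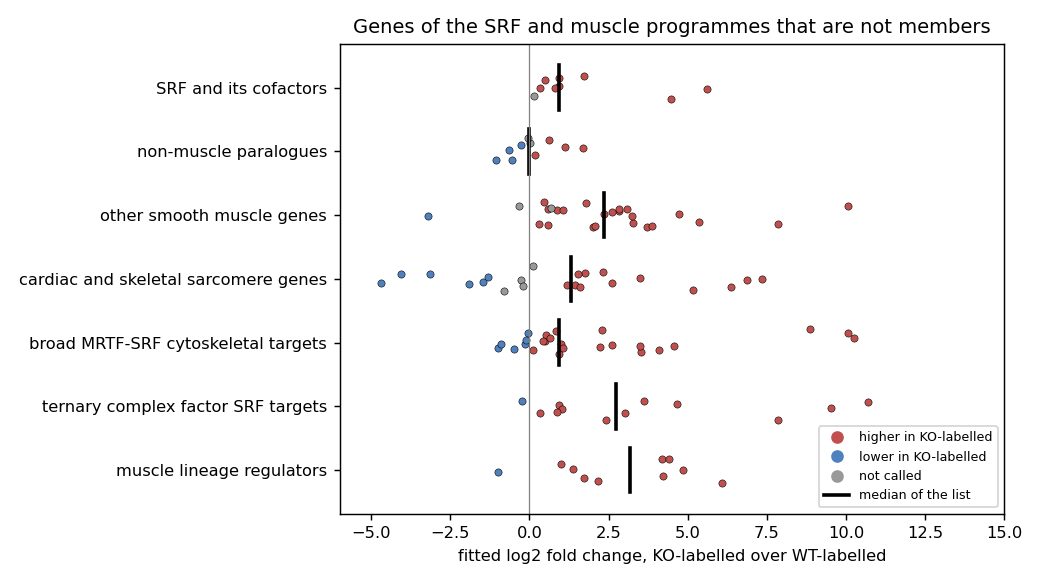
Fitted log2 fold change, KO-labelled over WT-labelled, of each tested gene in 7 lists of SRF-related and muscle genes outside the set, with 1 point per gene, red for called higher, blue for called lower, grey for not called, and a bar at the list's median. Medians lie at 0.93 for SRF and its cofactors, -0.02 for the non-muscle paralogues and 2.35 for the other smooth muscle genes, and values near 10 belong mostly to genes at or next to 0 counts in WT-labelled libraries, whose fitted value depends on the prior count.

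Markers of several cell types were higher beside the contractile genes, where 37.2% of all genes tested were called higher and 35.8% lower. The smooth muscle, cardiac and skeletal markers, Gata4 and Gata6 also stand in the lists above, so theirs are the same calls again. All 6 mature smooth muscle markers were called higher, with a summed level of 81.3 and 78.9 CPM in KO-labelled and 25.7 and 32.1 CPM in WT-labelled libraries. Most of that sum was Smtn, with 46.0 and 47.1 CPM in KO-labelled and 22.2 and 28.5 CPM in WT-labelled libraries. Kcnmb1 was at 0 in both WT-labelled libraries. Of 10 fibroblast and mesenchyme markers, 8 could be tested and 8 were called higher. The 10 markers summed to 294 and 287 CPM in KO-labelled and 10.1 and 10.1 CPM in WT-labelled libraries, where Lum, Dcn, Postn and Prrx1 were at 0. Lum (1 and 5 counts) and Dcn (12 and 2 counts) were also scarce in KO-labelled libraries and were not tested. The 5 simple epithelium markers, all called higher, summed to 697 and 708 CPM in KO-labelled and 61.0 and 61.2 CPM in WT-labelled libraries. Of the 6 endoderm markers, 4 could be tested and 4 were called higher. The 6 summed to 35.7 and 36.3 CPM in KO-labelled and 1.05 and 1.34 CPM in WT-labelled libraries. Afp (0 and 1 counts) and Ttr (0 and 0 counts) were at the floor in KO-labelled libraries too. Of the 6 cardiac markers, 5 could be tested and 3 were called higher. The 6 summed to 24.9 and 25.7 CPM in KO-labelled and 14.6 and 13.98 CPM in WT-labelled libraries. The skeletal markers summed to 12.9 and 15.1 CPM in KO-labelled and 209 and 226 CPM in WT-labelled libraries, almost entirely Mylpf. Of the 5 neuron markers, 4 could be tested, and Map2, Rbfox3 and Syt1 were called higher and Tubb3 lower. They summed to 37.4 and 36.5 CPM in KO-labelled and 144 and 145 CPM in WT-labelled libraries, most of it Tubb3, which averaged 21.3 CPM in KO-labelled and 140.8 CPM in WT-labelled libraries. Of the 5 endothelial markers, 4 could be tested, and Kdr, Tek and Tie1 were called higher and Pecam1 lower. They summed to 85.9 and 86.0 CPM in KO-labelled and 93.2 and 98.1 CPM in WT-labelled libraries, most of it Pecam1, which averaged 69.7 CPM in KO-labelled and 93.8 CPM in WT-labelled libraries. The part of these cell types in the rise of the contractile genes was not tested.

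Polymerase II HiChIP gave a second view of the loci. An anchor within 2500 bases of the gene's span was counted, and a loop was called strong at an authors' false discovery rate (FDR) of at most 0.01 with at least 2 tags. The KO-labelled list held 489409 loops and 977208 tags on anchors covering 173 Mb, against 143451 loops and 407150 tags on 92.5 Mb in the WT-labelled list, so the lists differ in how much was called, and there is no replicate check. Strong loops touched 7 of the 10 genes in the KO-labelled list, where 73.1% of RNA-tested coding genes had 1, and 2 of the 10 in the WT-labelled list, where 54% had 1. A strong loop in the KO-labelled list and none in the WT-labelled list was found for 5 genes (Acta2, Tagln, Cnn1, Myl9, Tpm2). That pattern held for 26.8% of RNA-tested coding genes. The strong loops of Cnn1 and Tpm2 started from anchors outside the gene's span (chr9:22094607-22097762 and chr4:43507338-43511789). No strong loop in either list was found for Acta1, Actc1 and Actg2, against 19.2% of RNA-tested coding genes, which leave out Actg2. Of all coding genes, tested or not, 54.3% had a strong loop in the KO-labelled list and 37.8% in the WT-labelled list. Among coding genes called higher in RNA, 71.6% had a strong loop in the KO-labelled list and 42.3% in the WT-labelled list, and among those called lower 76.4% in the KO-labelled list and 67.7% in the WT-labelled list.

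The actin loci carried few or weak loops. Acta2 had 22 loops with 39 tags on 3 anchors in the KO-labelled list, and no anchor or loop in the WT-labelled list, where the nearest anchor lay 61730 bases from its start. Its loop with the most tags, 10, joined the start and the 3′ part of the gene across 10.9 kb at an FDR of 0.0194, short of the threshold. The 1 strong loop of Acta2, with 2 tags, ran 231 kb from chr19:34242312-34246111 to chr19:34474022-34475743 at Ch25h, cholesterol 25-hydroxylase, which had 0 counts in all 4 libraries. Actc1 had 4 loops with 9 tags and Actg2 17 loops with 30 tags in the KO-labelled list, none of them strong, and both had 0 loops in the WT-labelled list. Acta1 had 0 loops in both lists, although its RNA was at least 209-fold higher. The nearest anchor to the Acta1 start lay 8846 bases away in the KO-labelled list and 33993 bases away in the WT-labelled list. For Acta2 and Actc1 the start lay inside a KO-labelled anchor, and the nearest WT-labelled anchor to Actc1 was 119244 bases away.

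Tagln, Cnn1 and Myl9 had loops in the KO-labelled list and 0 loops in the WT-labelled list. Tagln had 42 loops with 99 tags, of which 9 were strong. The strongest carried 25 tags (FDR 1.25e-11) over 14.2 kb to the anchor at Pcsk7, the gene whose span overlaps Tagln, and others reached Dscaml1, a neural adhesion molecule, with 7 tags over 263 kb, and the pair Apoa5 and Zpr1 with 5 tags over 338 kb. Tagln therefore combined the most strong loops of these 3 genes with the fewest reads in RNA. Because Pcsk7 and Sidt2 lie within 2500 bases of Tagln, its anchor cannot be assigned to Tagln rather than to its neighbours. Cnn1 had 45 loops with 83 tags in the KO-labelled list, and had 2 strong loops with 2 tags each, of which one reached Col5a3, a collagen chain, 1300 kb away. Myl9 had 72 loops with 118 tags and 5 strong loops, led by 10 tags over 67.7 kb to Tgif2, a repressor of TGF-β signalling.

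Cnn2, Tpm1 and Tpm2 were looped under both labels. Cnn2, in a gene-dense stretch, had 123 loops with 367 tags in the KO-labelled list and 75 loops with 198 tags in the WT-labelled list, of which 33 were strong in the KO-labelled and 8 in the WT-labelled list. Per 1000000 tags of the list, all loops held 376 in the KO-labelled and 486 in the WT-labelled list, and strong loops 225 in the KO-labelled and 211 in the WT-labelled list. Its 7.49-fold higher RNA stood beside tag shares of similar size in this window, which also takes in anchors outside the gene's span. In the WT-labelled list, chr10:79982447-79986298 and chr10:79996115-79998243 lay outside the span. The strong loops from the WT-labelled anchor on the gene, chr10:79987794-79989379, held 18 and 2 tags. In the KO-labelled list, 1 wider anchor, chr10:79982447-79989799, covered the start and the upstream region together. The shares can therefore not be assigned to Cnn2 alone. In the KO-labelled list the strong Cnn2 loops with the most tags ran to Atp5d and Midn (22 tags, 168 kb), Sbno2 (19 tags, 87.6 kb) and Stk11 (16 tags, 130 kb). In the WT-labelled list they ran to 1 broad anchor over Arhgap45, Gpx4, Polr2e and Sbno2. These loops held 30, 18 and 18 tags from 3 anchors on or within 2500 bases of Cnn2. Tpm1 had 52 loops with 64 tags in the KO-labelled list and 17 loops with 33 tags in the WT-labelled list. Strong Tpm1 loops held 6 tags in the KO-labelled and 14 in the WT-labelled list, or 6.14 and 34.4 per 1000000. Over all Tpm1 loops the shares were 65.5 in the KO-labelled and 81.1 in the WT-labelled list. In the WT-labelled list the strong loops with the most tags reached Tln2, talin 2, with 7 and 5 tags over 161 and 166 kb. On these few tags, the strong share was lower under the label with more Tpm1 RNA. Tpm2 had 41 loops with 75 tags and 2 strong loops in the KO-labelled list, and 7 loops with 8 tags and no strong loop in the WT-labelled list. Its strong loops reached Fam214b, Pigo and Stoml2 on 1 side and Glipr2 on the other, with 2 tags each. With at least 3 tags asked of a strong loop, 3 of the 10 genes (Tagln, Cnn2, Myl9) kept 1 in the KO-labelled list and 2 in the WT-labelled list.

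**Figure D5:**
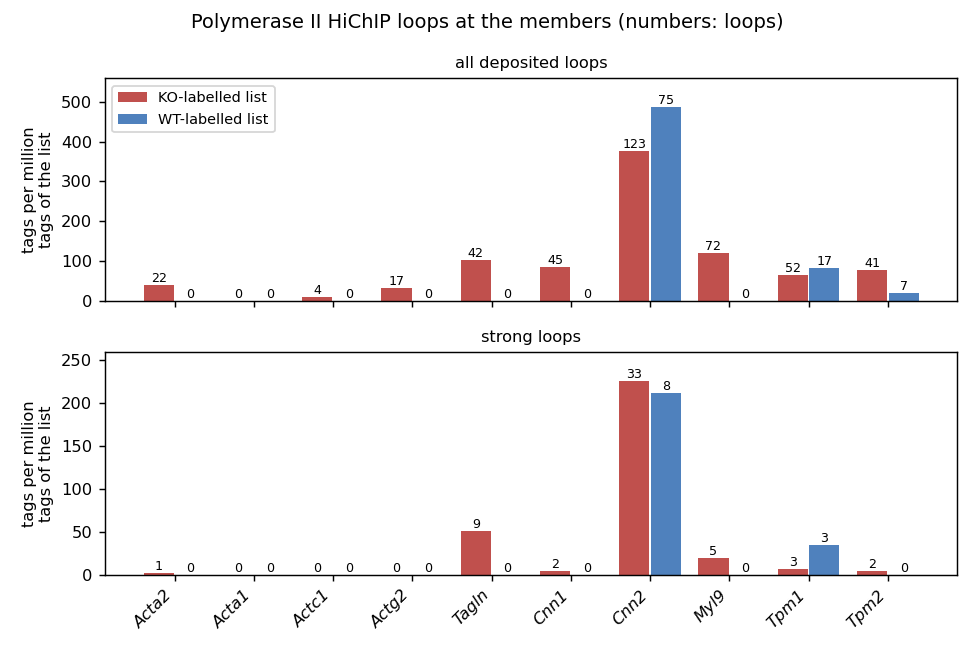
HiChIP tags per 1000000 tags of the list at each of the 10 genes, with the KO-labelled list left of the WT-labelled list, all deposited loops above and strong loops below, and the number of loops written over each bar. Cnn2 carries the tallest bars in both lists (376 in KO-labelled and 486 in WT-labelled for all loops), and 7 of the genes have 0 loops in the WT-labelled list.

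Genes at the far ends of these strong loops moved in both directions. Of 57 coding genes within 2500 bases of a far anchor, 51 were tested, and 27 were called higher and 12 lower. That is 76.5% called, with a median log2 fold change of 0.32. The share over all genes tested was 73.1%, a base that is not limited to coding genes. Of the 14125 coding genes tested, 5705 were called higher, 5468 lower and 2952 were not called. Arhgap45, a RhoA GTPase-activating protein linked to Cnn2 in the WT-labelled list, averaged 88.0 CPM in KO-labelled and 5.92 CPM in WT-labelled libraries (log2 3.89 ± 0.080, edgeR adjusted p = 5.21e-23). Glipr2, linked to Tpm2 in the KO-labelled list, averaged 133.5 CPM in KO-labelled and 8.81 CPM in WT-labelled libraries (log2 3.94 ± 0.11). Dscaml1, linked to Tagln, averaged 3.71 CPM in KO-labelled and 1.31 CPM in WT-labelled libraries and was called higher. Polr2e, a subunit shared by the RNA polymerases, was lower (128 CPM in KO-labelled and 312 CPM in WT-labelled libraries), as was Pcsk7 (log2 -0.77 ± 0.11). Tln2 (log2 0.49) was called higher, and Col5a3, Atp5d and Sbno2 were not called. Tgif2 was called higher by a small margin (log2 0.35 ± 0.14, edgeR adjusted p = 0.0288), a call lost with DESeq2, without KO-labelled replicate 2 and without WT-labelled replicate 1.

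Genes next to the set moved in both directions too. Of 50 tested coding genes within 100 kb of 1 of the 10 genes, 26 were called higher and 20 lower, with a median log2 fold change of 0.20. That is 92% called, against 73.1% of all genes tested, a base that is not limited to coding genes. Beside Acta2, Stambpl1 was lower (log2 -1.01 ± 0.23) and the death receptor Fas higher, at 1.37 and 0.363 CPM in KO-labelled libraries and 0.228 and 0.0361 CPM in WT-labelled libraries. Beside Acta1, at least 209-fold higher, Nup133 at 2339 bases was lower by a small amount (log2 -0.18). Around Cnn2, Arhgap45 and Abca7 (log2 1.39) were higher and Wdr18 (log2 -1.02) and Polr2e (log2 -1.28) lower.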

How the data were processed

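RNA-seq was deposited by the authors as unnormalized counts per gene symbol in a file for each library. The submitters' processing notes list HISAT2 2.1.0, featureCounts 2.0.3, DESeq2 1.18.1 and the build mm10. The closing rows of the files look like htseq-count output instead, so the counter is uncertain, and no source used here gives its annotation or strand option. Rows naming no gene (20.4% to 22.5% of column totals) were left out. After filterByExpr and TMM scaling, edgeR 4.0.16 (R 4.3.3) was run with its quasi-likelihood test and Benjamini-Hochberg adjustment over all 17273 genes, and genes with an adjusted p below 0.05 were called. DESeq2 1.42.0 was an alternative. Of called genes, 50.9% were higher with TMM and 62.0% with library size alone, a scaling under which the median log2 fold change of all genes was 0.24 in place of 0.03. P-values measure the spread between the 2 replicates per label, which the series design calls biological. Folds against 0 counts use a floor of 3 counts per library, and intervals and floors cover counting error only.

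For HiChIP the authors deposited 1 loop list per genotype, which the labels of both replicates name, with a tag count and an FDR (a q-value) for each loop. Both values are used as deposited. The submitters' processing notes list Bowtie2 2.4.4, MACS2 2.2.7.1 and HiC-Pro 2.11.1. Gene spans and promoters came from RefSeq (GRCm38.p6). Levels of different genes were not compared because no transcript lengths were used, which replaces a planned comparison per length.

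The 10 genes, the gene lists and the tests were chosen with earlier results of these data known. Named genes were Klf4, the 10 genes, the 2 largest called rises and 2 largest called falls of each list, the 5 genes nearest to Acta2, and genes at the far ends of each gene's 3 strong loops with the most tags. Other genes named beside them were chosen after their values were seen. The ChIP-seq samples were not analysed here.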

Additional observations from a re-analysis of the deposited data

How the results depend on the processing

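Of the counts and loop numbers recomputed under each alternative, 185 kept their direction and stayed within 1.5 times, and 11 moved. Fold changes were recomputed for Tagln, Cnn1, Cnn2, Myl9, Tpm1 and Tpm2, and lower bounds for Acta1 and Actc1. Of these values and the genes nearest to Acta2, 70 stayed and 9 moved. The count ratio of Acta2 and the counts of Actg2 were not recomputed. Tln1, Actn4 and Dstn, called lower with TMM factors, were called higher with library size alone. Broad MRTF-SRF targets called lower numbered 3 with upper-quartile factors and 3 with library size alone, in place of 6. Ternary complex factor targets called lower numbered 0 with library size alone, and muscle lineage regulators called lower numbered 2 without a filter and 2 with DESeq2, in place of 1 each. With at least 3 tags per strong loop, 3 genes and 29 loops remained in the KO-labelled list, in place of 7 and 55. Counting all deposited loops gave 418 in the KO-labelled and 99 in the WT-labelled list, against 55 strong loops in the KO-labelled and 11 in the WT-labelled list. A window of 10000 bases gave 4 genes with a strong loop in the WT-labelled list in place of 2. The gene span alone gave 5 strong loops in the WT-labelled list in place of 11. It left 5 genes with a strong loop in the KO-labelled list in place of 7.

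Leaving out 1 library at a time gave 5781 to 6235 genes higher and 5878 to 6038 lower, in place of 6428 and 6190; the lone library was assumed to vary like the others. The log2 fold change of Cnn1 was 6.78 without WT-labelled replicate 1 and 2.94 without WT-labelled replicate 2, and the lower bound for Acta1 was 186 to 234. Library size alone gave 3.20 for Tpm1, 3.11 for Cnn2, 1.14 for Tpm2 and a bound of 241 for Acta1. The labels share replicate numbers but do not say that these pair samples, and same-numbered deviations correlated at 0.02; with the replicate block 6298 genes were higher and 6112 lower. The causes of these shifts were not tested. Read depth limits Actg2, Tagln and the bounds for Acta1 and Actc1.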

Other observations

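The disagreement of the WT-labelled libraries on Cnn1 was shared by few genes. At least 30 counts and a 10-fold excess in WT-labelled replicate 1 over replicate 2 were found for 5 genes (Ankrd53, Capn2, Cnn1, Lrrk1 and Txnrd2), and the reverse for 3 genes. Between the KO-labelled libraries, replicate 1 exceeded replicate 2 in this way for 9 genes and replicate 2 exceeded replicate 1 for 1 gene. Capn2, a calpain protease, had 1465 and 1481 counts in KO-labelled libraries and 34 and 1 in WT-labelled libraries. Lrrk1, a kinase, had 140 and 147 counts in KO-labelled libraries and 35 and 2 in WT-labelled libraries.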
